A study of Mus musculus with 4 samples.

Results

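*Fgfr1*, *Fgfr2* and *Fgfr3* encode receptors of the fibroblast growth factors, *Spry1*, *Spry2*, *Spry4*, *Spred1* and *Dusp6* encode inhibitors of the signal that those receptors start, and *Etv4* and *Etv5* encode transcription factors that the signal switches on. The 10 genes were chosen by name and with earlier results of these data known, and 15 of the 55681 probes on the array carry their names, among 36499 genes in all. RNA levels were measured on 4 two-colour expression arrays (Agilent SurePrint G3 Mouse GE) from neural stem/progenitor cells (NSPCs) of mouse embryos at embryonic day 13.5, strain Slc:ICR by the labels. There were 2 arrays from wild-type cells and 2 from *Trp53*-/- cells, which lack both copies of the gene for the tumour suppressor p53. On every array RNA of cells exposed to 20 μM PJ34, an inhibitor of the poly(ADP-ribose) polymerases, carried the dye Cy5, and RNA of untreated cells of the same genotype carried Cy3. All cells were grown as neurospheres in medium with EGF and FGF-basic, each at 20 ng/ml, so an FGF receptor ligand was present in every group. The *Trp53*-/- cells came from a mouse line obtained as heterozygotes. Which embryos were pooled and how long these cells were exposed to PJ34 are not given in the sources used here.

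FGF receptors are tyrosine kinases that, once bound by a ligand and a heparan sulphate chain, recruit the adaptor FRS2 and turn on the Ras, RAF, MEK and ERK cascade. ERK activity raises transcription of the ETS factors of the *Etv* family and of the genes that dampen the pathway itself. Sprouty and Spred proteins act on Ras and RAF, and DUSP6 is a phosphatase that removes the activating phosphates from ERK in the cytoplasm. In neural progenitors FGF signalling is known for sustaining proliferation, and *Fgfr3* is expressed in the ventricular zone of the embryo and later in the astrocyte lineage.

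The arrays had features that the group labels do not explain. Each array had its own slide and its own scan, and both wild-type arrays were scanned before both *Trp53*-/- arrays, so the genotype and the time of scanning cannot be told apart. The RNA pairs were not alike in sex-linked transcripts. The Y-linked genes *Eif2s3y* and *Ddx3y* were well above background in the control channel of both wild-type arrays and of neither *Trp53*-/- array, and on *Trp53*-/- replicate 2 the log2 ratio of PJ34 over control was 4.22 for *Eif2s3y*, 3.12 for *Ddx3y* and -1.39 for *Xist*, against values between -0.20 and 0.84 for these genes on the other arrays. The PJ34 and control RNA of that array therefore differed in sex-linked RNA. Without that array the *Trp53*-/- ratio of a gene is the value of replicate 1, and what the other comparisons gave without it is stated beside them. The control signal of *Trp53* itself was 8.28 and 8.51 (log2) in wild-type and 7.56 and 7.82 in *Trp53*-/- cells and was well above background on all 4 arrays. Where its probe lies against the deleted part is not given in the sources used here. All 12 neural progenitor markers, among them *Nes* and *Sox2*, were well above background in the control channel of every array, and all 5 fibroblast markers were not on any array. Of 5 microglia markers, *Itgam* and *Csf1r* were above it on all 4 arrays and 3 on none. Their untreated differences, *Trp53*-/- minus wild-type, were -0.68 and -0.82 (limma q = 0.0557 and 0.0517). Of 4 endothelium markers, *Pecam1* was above it on 3 arrays and 3 markers on none.

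The probes show which part of a transcript was read. The main probe of each gene is the brightest over the 4 arrays, and on the genome build mm9 the probes of *Fgfr3* lie at chr5:34079649-34079708 for A_55_P1996578, the brighter, and at chr5:34077856-34078090 for A_65_P06147. The latter spans 235 genomic bases with 60 bases of sequence, so it crosses an intron and reads spliced RNA. Its sequence is shown because it gives a second reading of *Fgfr3*, the member with the widest change.

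Fgfr3 probe A_65_P06147: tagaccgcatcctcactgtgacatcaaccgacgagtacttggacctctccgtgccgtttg

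RefSeq promoter windows (GRCm38.p6, from 250 bases before to 50 bases after a gene's start) were at hand for 7 of the 10 genes. They are shown for *Fgfr3*, and for *Spry2*, *Etv5* and *Dusp6*, the 3 members whose signal with PJ34 was above control on all 4 arrays. The windows printed are chr5:33721474-33721773 on the plus strand for *Fgfr3*, chr14:105896770-105897069 on the minus strand for *Spry2*, chr16:22439521-22439820 on the minus strand for *Etv5* and chr10:99262981-99263280 on the plus strand for *Dusp6*. Capitals mark the ETS core CCGGAA, searched on both strands.

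Fgfr3 promoter: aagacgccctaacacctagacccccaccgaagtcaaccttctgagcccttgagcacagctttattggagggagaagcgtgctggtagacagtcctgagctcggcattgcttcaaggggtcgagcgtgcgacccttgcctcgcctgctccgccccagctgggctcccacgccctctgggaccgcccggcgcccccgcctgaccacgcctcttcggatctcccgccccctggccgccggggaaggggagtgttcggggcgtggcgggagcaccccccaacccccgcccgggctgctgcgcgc
Spry2 promoter: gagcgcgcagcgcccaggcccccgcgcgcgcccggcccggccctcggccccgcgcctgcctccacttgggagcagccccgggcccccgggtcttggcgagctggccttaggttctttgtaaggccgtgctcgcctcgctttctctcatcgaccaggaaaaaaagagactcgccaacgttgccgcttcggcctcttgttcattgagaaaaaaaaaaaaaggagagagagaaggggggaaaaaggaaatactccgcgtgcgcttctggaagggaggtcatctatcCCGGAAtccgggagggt
Etv5 promoter: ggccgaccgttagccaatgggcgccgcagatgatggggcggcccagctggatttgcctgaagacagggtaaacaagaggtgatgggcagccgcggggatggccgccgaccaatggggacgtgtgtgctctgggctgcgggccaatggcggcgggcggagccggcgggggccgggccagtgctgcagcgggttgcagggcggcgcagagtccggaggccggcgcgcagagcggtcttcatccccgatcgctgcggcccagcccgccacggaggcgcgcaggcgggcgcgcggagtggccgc
Dusp6 promoter: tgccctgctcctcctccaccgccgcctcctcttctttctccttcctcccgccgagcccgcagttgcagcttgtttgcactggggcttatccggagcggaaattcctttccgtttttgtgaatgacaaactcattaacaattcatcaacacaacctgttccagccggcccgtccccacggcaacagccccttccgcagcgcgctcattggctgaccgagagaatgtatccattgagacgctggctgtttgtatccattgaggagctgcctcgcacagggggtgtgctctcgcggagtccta

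The ETS core was in the *Spry2* window alone, with its match starting 34 bases after the gene's start, among the 9 windows of the 7 genes. It occurs in 14.9% of all 32851 mouse promoter windows. The p53 half-site consensus, which is in 8.36% of all windows, matched none of the 9 windows. A match here describes letters of a window only, and these arrays do not measure binding.

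Across all 20227 genes tested for PJ34, 58 were called higher and 43 lower in wild-type and 18 higher and 55 lower in *Trp53*-/- cells, where called means an unadjusted p and a Storey q below 0.05 in limma's fit and a change of more than 2-fold. Centring each array on its median instead of loess moved the log2 ratio of the middle gene from 0.029 to 0.457 in wild-type and from 0.033 to 0.627 in *Trp53*-/- cells, and the calls became 1179 higher and 2 lower, and 3404 higher and 4 lower. Directions below are those after loess, and members that change sign under median centring are named where they are described. The values of the members themselves are given as descriptions with no p or q beside them, because the members were chosen with them in view, and counts of members past a threshold describe them in the same way.

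*Fgfr3* was the receptor, and the member, with the widest change after PJ34. The log2 ratio of PJ34 over control was -1.49 and -1.39 on the wild-type arrays and -1.18 and -1.37 on the *Trp53*-/- arrays. All 4 values lay far below 0, and both *Trp53*-/- values lay above both wild-type values, though wild-type replicate 2 and *Trp53*-/- replicate 2 nearly met. The mean was -1.44 ± 0.07 (SD, n = 2), or 2.71-fold lower, in wild-type and -1.28 ± 0.14 (SD, n = 2), or 2.43-fold lower, in *Trp53*-/- cells. The difference between genotypes, wild-type minus *Trp53*-/-, was -0.16 with a standard error of 0.13. Without *Trp53*-/- replicate 2 the *Trp53*-/- value was -1.18 and the difference -0.26. *Fgfr3* met the criteria of a call in both genotypes, as 1 member of 10, where 0.499% of all genes did in wild-type and 0.361% in *Trp53*-/- cells (lower alone, 0.213% and 0.272%); the rule that chose the members used these contrasts, so nothing is read from the counts. After median centring the ratios were -0.83 and -0.32, still below 0 while the middle gene lay above it, and neither was called. Glial markers moved in the same comparison in *Trp53*-/- cells, where 3 of 5 oligodendrocyte markers were lower past the q threshold by limma and 0 higher, *Mag* at -1.36, *Mbp* at -0.36 and *Cnp* at -0.30 (q = 0.000157, 0.0209 and 0.0497). Over all genes, 10.5% were lower and 12.8% higher past that threshold there. Of 6 astrocyte markers 1 was lower, *S100b* at -0.62 (q = 0.00177), and 3 were higher. The higher ones were *Gfap* at 0.81, *Slc1a2* at 0.44 and *Aldh1l1* at 0.37 (limma q = 0.0337, 0.0104 and 0.0409). *Gfap* had -0.0002 on replicate 1 and 1.62 on replicate 2. In wild-type cells the 5 oligodendrocyte markers had ratios between -0.28 and 0.15. The astrocyte marker *Aldoc* alone of its list was past the q threshold there, at -0.40 (limma q = 0.0207). Under median centring *Mag* was -0.75 in *Trp53*-/- cells, and *Mbp*, *Cnp* and *S100b* turned above 0 there, as *Aldoc* did in wild-type. Without *Trp53*-/- replicate 2 the values were -1.14 for *Mag*, -0.77 for *S100b*, -0.39 for *Mbp* and -0.46 for *Cnp*. They were -0.0002 for *Gfap*, 0.28 for *Slc1a2* and 0.18 for *Aldh1l1*. Neural progenitor markers moved as well, 2 of 12 higher in *Trp53*-/- cells, *Prom1* at 0.73 and *Fabp7* at 0.58 (limma q = 0.000741 and 0.00247). Lower were 2, *Vim* at -0.31 and *Slc1a3* at -0.30 (limma q = 0.0299 and 0.026), which turned above 0 under median centring. These 4 had 0.61, 0.60, -0.41 and -0.38 without *Trp53*-/- replicate 2. In wild-type cells 3 of the 12 were higher and 4 lower past the q threshold. The part of these markers in the *Fgfr3* ratio was not tested. RNA of a cell mixture cannot tell fewer cells that carry *Fgfr3* from less *Fgfr3* RNA in each cell, and the dyes were not swapped, so a dye bias cannot be told apart from PJ34.

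The intron-crossing probe of *Fgfr3* also gave values below 0 on every array. Its log2 ratios were -0.79 and -0.38 in wild-type and -1.02 and -1.21 in *Trp53*-/- cells, means of -0.59 ± 0.29 and -1.12 ± 0.14 (SD, n = 2). On this probe the *Trp53*-/- arrays lay below the wild-type arrays without overlap, and on the brighter probe they lay above them without overlap, so the probes gave opposite orders of the genotypes. When the probes were averaged, the difference between genotypes turned from -0.16 to 0.18. The probe was far dimmer, with a PJ34 signal of 6.81 and 6.94 (log2) in wild-type.

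**Figure D1:**
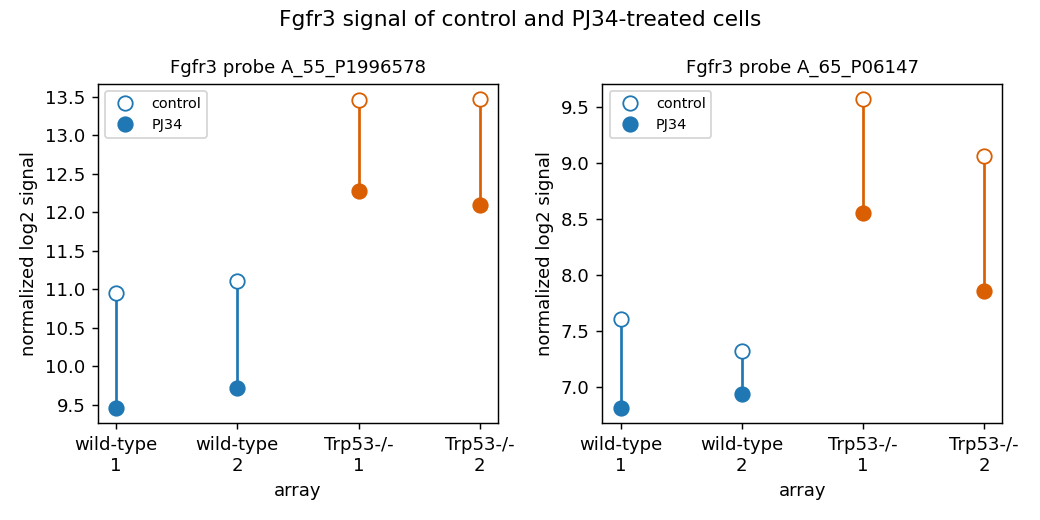
Normalized log2 signal of *Fgfr3* (vertical axis) on each of the 4 arrays (horizontal axis) for the brighter probe (left) and the intron-crossing probe (right); open circles are control RNA and filled circles PJ34 RNA of the same array, joined by a line, with wild-type in blue and *Trp53*-/- in orange. On all 4 arrays and both probes the PJ34 signal lies below control, and both *Trp53*-/- arrays lie above both wild-type arrays, 13.46 and 13.47 against 10.95 and 11.11 for control RNA on the brighter probe. The vertical scales of the panels differ.

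*Fgfr1* and *Fgfr2*, the other FGF receptors among the members, stayed within a far smaller range. *Fgfr1*, the receptor most widely expressed in neural progenitors, gave -0.02 and -0.27 (log2 ratio) on the wild-type arrays and -0.33 and -0.35 in *Trp53*-/- cells, and these signs turned to 0.55 and 0.65 for the genotype means under median centring. Of its other probes, A_55_P1967022 gave -0.01, -0.19, -0.23 and -0.21 in the same order of arrays. A_55_P1967015, which reads a later part of the transcript, gave 0.28, 0.24, 0.29 and 0.15. The probes of *Fgfr1* thus disagreed in sign on all 4 arrays, so no direction is given for the gene. *Fgfr2*, read from A_55_P2094881, had 0.06, 0.01, -0.06 and 0.18, values on both sides of 0 in *Trp53*-/- cells. Its other probe, spotted 10 times, was not well above background in the control channel of any array.

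Among the feedback inhibitors, *Dusp6* had the highest ratio in wild-type cells. Its log2 ratio was 0.56 and 0.42 in wild-type and 0.29 and 0.04 in *Trp53*-/- cells, so all 4 were above 0 and both wild-type values lay above both *Trp53*-/- values. The means were 0.49 ± 0.10 (SD, n = 2), or 1.40-fold, and 0.17 ± 0.18 (SD, n = 2), or 1.12-fold. The difference of the genotypes was 0.32 with a standard error of 0.14, and it was 0.03 under median centring. Without *Trp53*-/- replicate 2 the *Trp53*-/- value was 0.29 and the difference 0.20.

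*Spry2*, which encodes a Sprouty protein, had the same order of arrays. The ratio was 0.49 and 0.25 in wild-type and 0.06 and 0.01 in *Trp53*-/- cells, and the groups did not overlap. The means were 0.37 ± 0.17 and 0.03 ± 0.04 (SD, n = 2), a difference of 0.33 with a standard error of 0.13 that was 0.15 under median centring and 0.31 without *Trp53*-/- replicate 2.

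The other Sprouty genes were above 0 in wild-type cells and not on both *Trp53*-/- arrays. *Spry1* had ratios of 0.20 and 0.25 in wild-type and 0.36 and -0.18 in *Trp53*-/- cells, and *Spry4* had 0.37 and 0.10 in wild-type and 0.25 and -0.04 in *Trp53*-/- cells. For both genes *Trp53*-/- replicate 2 was the array below 0, the array whose RNA pair differed in sex-linked transcripts, and that difference's part in these values was not tested. *Spred1*, a relative of the Sprouty genes, had -0.06, -0.12, -0.11 and -0.21, small values that were all below 0 and turned to 0.49 and 0.63 for the genotype means under median centring.

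The ETS factors went in opposite directions. *Etv4* gave -0.45 and -0.78 (log2 ratio) on the wild-type arrays and -0.56 and -0.55 in *Trp53*-/- cells. Its means were -0.62 ± 0.24 (SD, n = 2), or 1.53-fold lower, and -0.55 ± 0.01 (SD, n = 2), or 1.47-fold lower, and they turned to 0.05 and 0.41 under median centring. The other *Etv4* probe, at chr11:101631322-101631381 on the minus strand of mm9, gave -0.33, -0.77, -0.46 and -0.62, so both probes were below 0 on all 4 arrays. *Etv5*, its close relative, had 0.57 and 0.33 in wild-type and 0.35 and 0.18 in *Trp53*-/- cells, with means of 0.45 ± 0.17 and 0.27 ± 0.12 (SD, n = 2). On every array the ratio of *Etv5* was above 0 and that of *Etv4* below 0, and the groups overlapped for both genes.

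**Figure D2:**
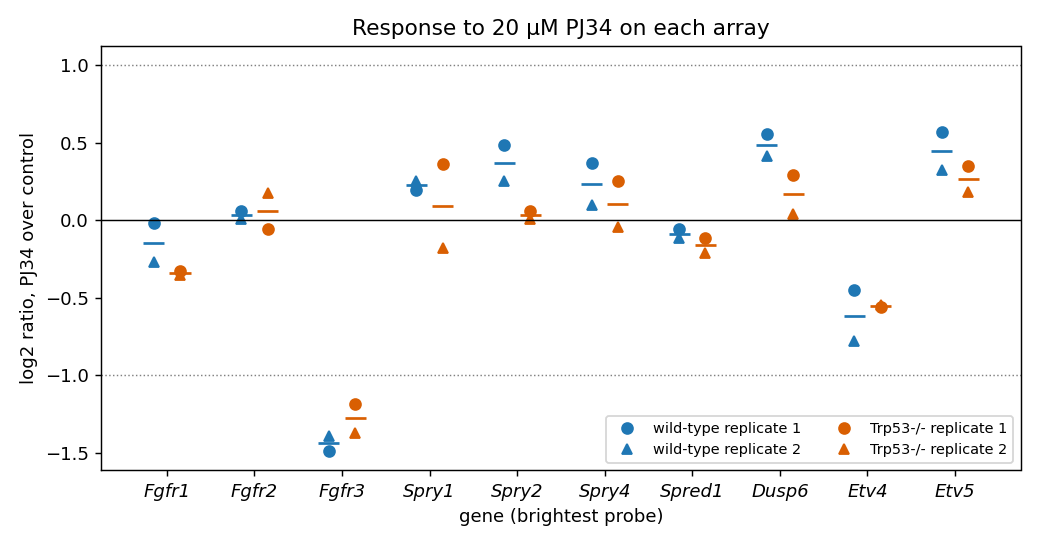
Log2 ratio of PJ34 over control (vertical axis) for the main probe of each of the 10 genes (horizontal axis); circles and triangles are replicates 1 and 2, wild-type in blue and *Trp53*-/- in orange, short bars are the means of 2 arrays and dotted lines mark a 2-fold change. *Fgfr3* alone lies beyond the dotted line, between -1.49 and -1.18, and *Spry2*, *Etv5* and *Dusp6* lie above 0 on every array.

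Counts over the 10 genes, each read from its main probe, put these values beside the rest of the array. A ratio of the same sign on all 4 arrays was seen for 7 of the 10 genes, *Fgfr1*, *Fgfr3*, *Spry2*, *Spred1*, *Etv4*, *Etv5* and *Dusp6*, and for 41.7% of all genes tested. Ratios that did not overlap between the genotypes were seen for 4 of the 10, *Fgfr1*, *Fgfr3*, *Spry2* and *Dusp6*, and for 45.2% of all genes tested. On its probe A_55_P1967015 *Fgfr1* had the other sign and overlapping groups, and the probes of *Fgfr3* ordered the genotypes oppositely. Without the fold limit, 5 members were past the q threshold in wild-type, where 24.8% of all genes were, namely *Spry2*, *Etv5* and *Dusp6* higher (13.6% of all genes) and *Fgfr3* and *Etv4* lower (11.3%). In *Trp53*-/- cells 4 members were, with 23.3% of all genes, *Etv5* higher (12.8%) and *Fgfr3*, *Etv4* and, by its main probe alone, *Fgfr1* lower (10.5%). The median ratio of the members was 0.13 in wild-type and 0.05 in *Trp53*-/- cells, against 0.03 over all genes in each genotype. No member was called in the difference between genotypes by limma, in which 0.47% of all genes were. An unadjusted limma p below 0.05 was seen for 2 members, *Spry2* and *Dusp6*, and for 2911 of all 20227 genes. Since the members were chosen with these contrasts known, the counts describe them and test nothing.

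The control channel gives the level in untreated cells, and it also enters every ratio above, so the comparisons share those signals. For *Fgfr3* the control signal was 10.95 and 11.11 (log2) in wild-type and 13.46 and 13.47 in *Trp53*-/- cells. The arrays of each genotype agreed closely and the groups lay far apart. The *Trp53*-/- level was higher by 2.44 with a standard error of 0.17, or 5.41-fold, and it was 2.43 without *Trp53*-/- replicate 2. The intron-crossing probe read 7.60 and 7.32 in wild-type and 9.57 and 9.07 in *Trp53*-/- cells, a difference of 1.86. *Fgfr3* was the 1 member called in this comparison, in which 4.68% of 17245 genes were called, 393 higher (2.28%) and 414 lower. Scaling the control channels by their medians gave 2.57, but then limma called 0 genes in all, with 2649 at an unadjusted p below 0.05.

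After PJ34 the *Fgfr3* signal of *Trp53*-/- cells remained above that of untreated wild-type cells. It was 12.28 and 12.10 with PJ34 in *Trp53*-/- cells, against 10.95 and 11.11 without PJ34 and 9.46 and 9.72 with PJ34 in wild-type cells. These levels compare Cy5 with Cy3, which a dye bias can shift.

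Some markers of glial cells moved in the same comparison as *Fgfr3*, in which 2.28% of all genes were called higher. Of 5 oligodendrocyte markers, 2 were called higher in untreated *Trp53*-/- cells, *Mbp* by 1.98 and *Mag* by 1.58 on the log2 scale, and the summed signal of the list was 10.73 and 11.45 in wild-type and 12.02 and 12.17 in *Trp53*-/- cells. Of 6 astrocyte markers, 2 were called higher, *Gfap* by 2.38, whose control signal passed the background limit on 1 of 2 wild-type arrays, and *S100b* by 1.89, and the summed signal was 14.9 and 15.0 against 15.3 and 15.2. All 5 oligodendrocyte markers were well above background on every array. Of 8 neuron markers, 6 could be tested and 1 was called higher, *Rbfox3* by 1.24, while *Syp* and *Snap25* were lower past the q threshold by limma, with differences of -0.80 and -0.73 (q = 0.0457 and 0.0452), and the summed signal was 13.5 and 13.2 in wild-type and 12.9 and 12.9 in *Trp53*-/- cells. Without *Trp53*-/- replicate 2 *Gfap* alone of these markers was still called, and the differences of the others named were 2.01 for *Mbp*, 1.63 for *Mag*, 1.77 for *S100b*, 1.17 for *Rbfox3*, -0.64 for *Syp* and -0.62 for *Snap25*. The astrocyte markers *Slc1a2* and *Aqp4* were higher past the q threshold, by 0.83 and 0.66 (limma q = 0.0372 and 0.0481). *Mog* and *Aldh1l1* lay below 0, at -0.41 and -0.58. Among 12 neural progenitor markers 0 were called, and *Msi1* alone passed the q threshold, at -0.96 (limma q = 0.0281). Without *Trp53*-/- replicate 2 these genes had 0.96, 0.67, -0.36, -0.54 and -0.83 in the same order. Sex-linked transcripts and the time of scanning differed between the genotypes as well, and the part of any of these in the *Fgfr3* level was not tested.

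The remaining members differed less between untreated genotypes, apart from *Spry4*, whose spread was wide. *Spry4* read 10.52 and 8.99 in wild-type and 8.72 and 8.05 in *Trp53*-/- cells, with both *Trp53*-/- arrays below both wild-type arrays. The difference was -1.37 with a standard error of 0.50, and wild-type replicate 1 set much of it, since it was -0.61 without that array and -2.13, then called, without wild-type replicate 2. *Spry1* read 12.90 and 12.43 in wild-type and 12.14 and 12.00 in *Trp53*-/- cells, a difference of -0.60. Both Sprouty genes thus had the lower signal in *Trp53*-/- cells on every array.

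The ETS factors had the higher signal in *Trp53*-/- cells. *Etv4* read 12.50 and 12.67 in wild-type and 13.00 and 13.19 in *Trp53*-/- cells, a difference of 0.51, and *Etv5* read 13.88 and 13.62 against 14.17 and 14.30, a difference of 0.48. The main probe of *Fgfr1* read 12.92 and 12.93 against 13.61 and 13.24, a difference of 0.50, whereas its probe A_55_P1967015 gave -0.49, so the probes disagreed here too. *Fgfr2* was 0.14 higher, *Spry2* 0.23 higher, *Spred1* 0.02 higher and *Dusp6* 0.04 higher, and the groups overlapped for *Spry2*, *Spred1* and *Dusp6*. Without *Trp53*-/- replicate 2 the differences were -1.03 for *Spry4*, -0.53 for *Spry1*, 0.42 for *Etv4*, 0.42 for *Etv5* and 0.68 for *Fgfr1*. By their main probes, 7 of the 10 genes had groups that did not overlap, as had 57.3% of all genes.

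**Figure D3:**
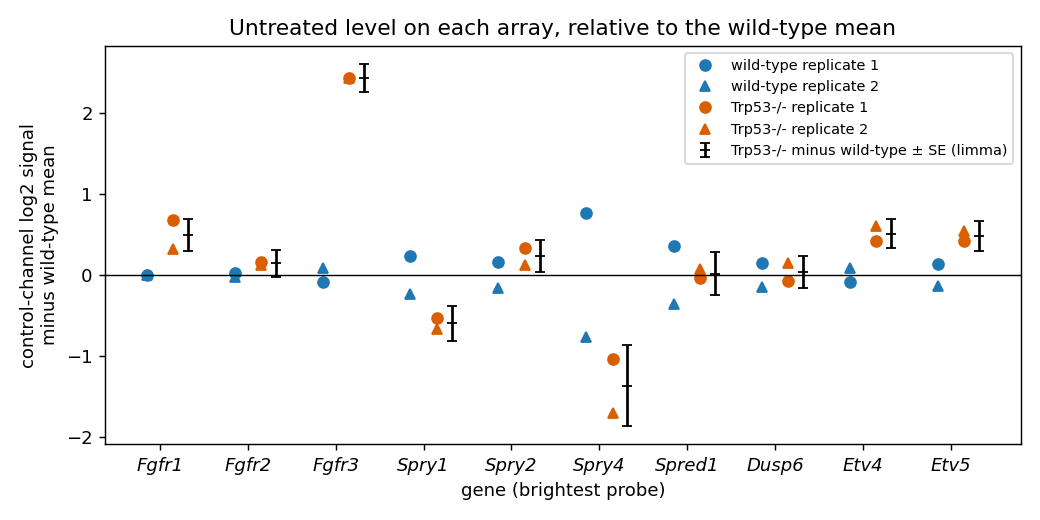
Control-channel log2 signal of each gene's main probe (horizontal axis, 10 genes) minus the wild-type mean of the gene (vertical axis); circles and triangles are replicates 1 and 2, wild-type in blue and *Trp53*-/- in orange, and black bars are the fitted difference ± standard error. *Fgfr3* lies 2.44 above the wild-type mean on average, *Spry4* has the widest spread, and the fitted differences of the other genes lie between -0.60 and 0.51.

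The other genes of the pathway were taken from lists fixed by name, of which 73 of 94 genes could be tested for PJ34. None of the 73 was called by limma in wild-type, in *Trp53*-/- cells or in the difference, where 0.499%, 0.361% and 0.47% of all genes were. An unadjusted limma p below 0.05 was seen for 25, 25 and 12 of them, and for 6431, 6254 and 2911 of all 20227 genes. Without the fold limit, 12 rose and 9 fell past the q threshold in wild-type, and 8 rose and 11 fell in *Trp53*-/- cells. Of all genes 13.6% rose and 11.3% fell in wild-type, and 12.8% rose and 10.5% fell in *Trp53*-/- cells. Nothing is read from these counts or from those of single lists below. Without *Trp53*-/- replicate 2 all 19 kept their sign in *Trp53*-/- cells and 6 were past the q threshold, *Fgf1*, *Sdc3*, *Sdc4*, *Fosl1*, *Etv1* and *Pdgfra*. The median ratio of the 73 genes was 0.05 in wild-type and -0.01 in *Trp53*-/- cells. Each gene named below as lower with PJ34, except *Spred3*, *Fosl1* and *Gpc2*, turned above 0 when arrays were centred on their medians. A fall here is thus one relative to the loess curve.

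Few FGF ligands were measurable, 5 of 18. *Fgf18*, a ligand that prefers the c-type receptors and FGFR4, rose by 0.74 in wild-type (limma q = 0.000459; 0.87 and 0.61 on the arrays), which became 1.02 with an offset of 16, 1.01 under median centring and 1.59 with the scanner software's values and was then called, and had 0.14 in *Trp53*-/- cells; the difference of 0.60 had q = 0.0525. The control signal of *Fgf18* was not well above background on both arrays of either genotype. Its untreated level was therefore not tested, and the same limit applies to its ratios. *Fgf23*, an endocrine ligand, rose by 0.32 in wild-type (q = 0.0172). *Fgf1*, which binds all FGF receptors, fell by 0.74 in *Trp53*-/- cells (q = 0.00387; -1.01 and -0.47) and had -0.06 in wild-type. *Fgf2*, the ligand supplied in the medium, was not well above background by the filter used and was not tested. Of the FGF homologous factors, which act inside the cell and do not use the receptors, *Fgf12* rose by 0.31 in wild-type and 0.26 in *Trp53*-/- cells (q = 0.0179 and 0.0372). *Fgf14* had a control signal not well above background in *Trp53*-/- cells and was at least 1.14-fold higher with PJ34 there (q = 0.0181).

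Among receptors and co-receptors, 5 fell and 2 rose past the q threshold of 15 tested in wild-type, and 4 fell and 0 rose in *Trp53*-/- cells, and under median centring all of these falls but that of *Gpc2* in *Trp53*-/- cells, which was then -0.13 and is named after its value was seen, turned to values above 0. *Sdc3*, a heparan sulphate carrier at the cell surface, fell by 0.57 and 0.50 (q = 0.00406 and 0.00873). *Flrt3*, a membrane protein that binds FGF receptors, fell by 0.45 and 0.47 (q = 0.00804 and 0.00729). *Sdc4*, another heparan sulphate carrier, fell by 0.34 and 0.70 (q = 0.0304 and 0.00178). *Sulf2*, which trims heparan sulphate, rose by 0.50 in wild-type (q = 0.00594) and had 0.08 in *Trp53*-/- cells. *Fgfrl1*, a receptor without a kinase domain, fell by 0.31 in wild-type (q = 0.0194) and had -0.19 in *Trp53*-/- cells. *Fgfr4* was not well above background in the control channel of any array, so no fold is given.

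In the cascade below the receptors, 3 genes rose and 3 fell past the q threshold of 22 tested in wild-type. *Hras* rose by 0.46 (q = 0.00369) while *Nras* fell by 0.40 and *Mapk3*, which encodes ERK1, fell by 0.50 (q = 0.00697 and 0.00607). In *Trp53*-/- cells *Nras* fell by 0.38 (q = 0.00905), and *Frs2*, the adaptor of the FGF receptors, and *Ptpn11*, a phosphatase that relays the signal, rose by 0.33 and 0.31 (q = 0.0179 and 0.0252). Of the 9 other feedback inhibitors none passed the q threshold in wild-type by limma, and in *Trp53*-/- cells *Cbl*, a ubiquitin ligase for receptors, rose by 0.33 and *Spred3* fell by 0.28 (q = 0.0207 and 0.0339).

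Of 10 other ERK-responsive and ETS genes, 4 rose past the q threshold in wild-type cells and 0 fell. *Egr1*, an immediate early gene, rose by 0.63 in wild-type (q = 0.000926; 0.58 and 0.67) and had 0.14 in *Trp53*-/- cells, a difference of 0.49 with q = 0.0897. *Etv1*, the third member of the subfamily of *Etv4* and *Etv5*, rose by 0.41 in wild-type and 0.35 in *Trp53*-/- cells (q = 0.0117 and 0.0237), the direction of *Etv5* and not of *Etv4*. *Fosl1*, an AP-1 subunit, rose by 0.41 in wild-type and fell by 0.54 in *Trp53*-/- cells (q = 0.00744 and 0.00264). Of the other receptor tyrosine kinases, *Pdgfra* fell by 0.43 and 0.32 (q = 0.0171 and 0.0472), and in *Trp53*-/- cells *Erbb4* rose by 0.28 and *Erbb2* fell by 0.24 (q = 0.036 and 0.0478). *Egfr*, whose ligand was in the medium, had 0.14 and 0.09 and passed in neither genotype.

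**Figure D4:**
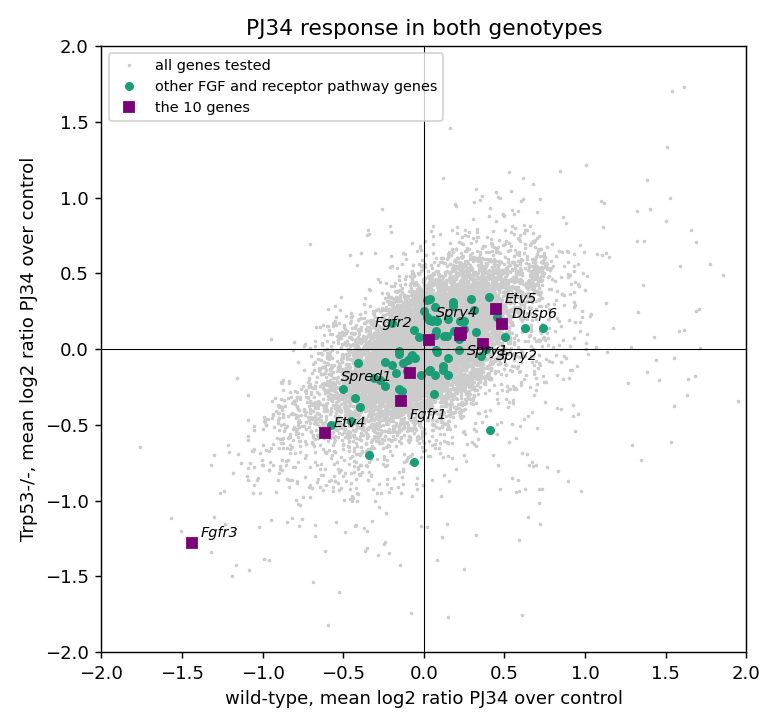
Mean log2 ratio of PJ34 over control in wild-type (horizontal axis) and *Trp53*-/- cells (vertical axis), for all genes tested (grey; 4 lie outside the axes), the other pathway genes (green) and the 10 genes (purple squares, named). *Fgfr3* lies at -1.44 and -1.28, apart from the other named genes, and the other pathway genes lie between -0.57 and 0.74 in wild-type.

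In untreated cells, 3 of the 63 other pathway genes tested were called, all higher in *Trp53*-/- cells. Of all 17245 genes 4.68% were called and 2.28% were called higher, so nothing is read from the count. *Sdc4* was 2.02 higher (9.70 and 10.1 against 11.8 and 12.0, q = 0.0101), *Rps6ka1*, a kinase activated by ERK, was 1.76 higher (q = 0.022) and *Fgf1* was 1.73 higher (q = 0.0147). All 3 calls were lost without *Trp53*-/- replicate 2, with differences of 1.94, 1.84 and 1.61. Leaving out *Trp53*-/- replicate 1 instead gave 1.68 for *Rps6ka1* and 1.84 for *Fgf1*. *Sdc4* and *Fgf1* were thus higher in untreated *Trp53*-/- cells and fell there with PJ34, the directions described for *Fgfr3*, and they share its control channels. *Rps6ka1* did not fall there and had a ratio of 0.10. Under median centring *Fgfr3* stayed below 0 in *Trp53*-/- cells, but *Sdc4* and *Fgf1* turned to 0.19 and 0.12. In wild-type cells *Fgf1* had -0.06. Past the q threshold but under 2-fold were *Erbb4* by 0.88, *Ntrk2* by 0.85, *Egr1* by 0.83 and *Errfi1*, an inhibitor of EGF receptors, by 0.76 higher, and *Fgf23* and *Pdgfra* were lower than in wild-type, with differences of -0.73 and -0.71. Without *Trp53*-/- replicate 2 all 9 differences past the q threshold kept their sign, with q between 0.0688 and 0.721 by limma.

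The genes whose 4 ratios lay closest to those of *Fgfr3*, by Euclidean distance over the arrays among all genes tested, were *Cd93*, *Tagln2*, *Mfng*, the unnamed probe A_55_P2113964 and *Tnfaip8l1*, at distances of 0.35, 0.36, 0.47, 0.54 and 0.60 on the log2 scale. *Cd93*, a membrane glycoprotein, had -1.16 and -1.48 in wild-type and -1.27 and -1.41 in *Trp53*-/- cells. *Tagln2*, an actin-binding protein, had -1.48, -1.52, -1.32 and -1.07, and *Mfng*, a glycosyltransferase that modifies Notch, had -1.45, -1.68, -0.82 and -1.41. No other member and no gene of the pathway lists was among the 5.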

How the data were processed

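The authors deposited scanner output of Feature Extraction 10.7.3.1 for 4 arrays, from which spot and background intensities of both colours were taken. The log10 ratios that the authors deposited, from the same software, were converted to log2 as an alternative. The series also has 4 normalized columns whose names match no array, and they were left out. Probe positions are on mm9. RefSeq gave the gene symbol of 26300 of the 55681 probes (47.2%), and the files gave the rest.

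Intensities were corrected by normexp with an offset of 50 and normalized by loess (limma 3.58.1, R 4.3.3). Flagged and control spots were left out. A probe was kept where at least 1 channel was well above background in at least 50% of its spots on both arrays of a genotype, 27042 probes, and a gene was read from its brightest kept probe. Control levels were compared after quantile normalization of mean intensities, over 22420 probes above background in the control channel of a genotype. For a channel under the well-above-background limit, a fold is a lower limit against the lowest signal well above background or the probe's own, and is open to dye bias. limma was fitted over all 4 arrays with a mean per genotype, with 2 residual degrees of freedom and 10.3 after moderation (6.18 for levels). Calls needed a change of over 2-fold with both p and Storey's q under 0.05. Per channel and array, 21505 to 27156 probes were well above background, and the number of arrays limits the precision. RNA was prepared independently for each array. The fit was tested on simulated data.

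All 10 members were named, 5 further genes always, per list and contrast at most the 3 largest changes past the q threshold, and the 5 genes nearest to *Fgfr3*. The members and lists were chosen with earlier results of these data known. Alternatives were the background correction, offset, normalization, scanner values, probe filters, probe of a gene, adjustment, fold limit, the replicate number as a block and leaving out each array. One listed oligodendrocyte marker is not reported here.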

Additional observations from a re-analysis of the deposited data

Results flagged for a closer look

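Among the 73 other pathway genes, 1 had a response to PJ34 that differed between genotypes past the q threshold. Among all 20227 genes 352 did, so nothing is read from the count. That gene was *Fosl1*, which encodes a subunit of the AP-1 transcription factor and responds to ERK. Its log2 ratio was 0.30 and 0.53 on the wild-type arrays and -0.56 and -0.51 on the *Trp53*-/- arrays, so it was above 0 on 2 of 2 arrays and below 0 on 2 of 2. The difference, wild-type minus *Trp53*-/-, was 0.95 with a standard error of 0.13 (limma q = 0.00719), just under 2-fold. It ranged from 0.83 to 1.06 when an array was left out and was 1.87 with the scanner software's ratios. With those ratios limma called 0 genes in the difference, with 2341 at an unadjusted p below 0.05. Under median centring the *Trp53*-/- ratio of *Fosl1* was -0.12. The control signal of *Fosl1* was 6.44 and 7.07 (log2) in wild-type and 7.62 and 7.70 in *Trp53*-/- cells. Its untreated level was thus 0.90 higher in *Trp53*-/- cells (limma q = 0.0537). That signal enters each ratio, and its part in the difference of the responses was not tested.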

How the results depend on the processing

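*Fgfr3* kept its direction in both genotypes and in untreated cells under every alternative run, from -1.60 to -0.83 in wild-type, from -1.37 to -0.32 in *Trp53*-/- cells and from 2.15 to 2.57 untreated, and lost its call under median centring and, untreated, under median scaling of the control channels. The calls over all genes are given in the order wild-type, *Trp53*-/-, difference and untreated, with 101, 73, 95 and 807 as reported. With an offset of 16 they were 166, 129, 39 and 1215. Median centring gave 1181 (99.8% higher) and 3408 (99.9% higher), and 2 and 3 members were called, all higher, *Etv5* and *Dusp6* in wild-type and also *Spry1* in *Trp53*-/- cells, with 7 and 10 other pathway genes. Under it these falls turned above 0 in wild-type: *Etv4* 0.054, *Sdc3* 0.068, *Flrt3* 0.10, *Sdc4* 0.26, *Mapk3* 0.12, *Nras* 0.23, *Pdgfra* 0.16 and *Fgfrl1* 0.35. In *Trp53*-/- cells so did *Fgfr1* at 0.65, *Etv4* at 0.41, *Fgf1* at 0.12, *Sdc3* at 0.40, *Flrt3* at 0.25, *Sdc4* at 0.19, *Nras* at 0.46, *Pdgfra* at 0.40 and *Erbb2* at 0.26. The cause was not tested. Median scaling of the control channels, which moved the middle gene from 0.014 to 0.116, left 0 genes, 0 members and 0 other pathway genes called by limma, with 2649, 2 and 14 at an unadjusted p below 0.05. The scanner software's values gave 561, 527, 0 (2341 at an unadjusted p below 0.05) and 1889 calls, with 68.3% higher in wild-type, 71.5% in *Trp53*-/- cells (24.7% as reported) and 36.2% untreated (48.7% as reported). Benjamini-Hochberg adjustment gave 536 untreated. Without the fold limit 5021, 4717, 352 and 1609 genes, 5, 4, 0 and 1 members and 21, 19, 1 and 9 other pathway genes passed.

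The count of other pathway genes called rose from 0 to 1 in wild-type with an offset of 16 and with the scanner values, *Fgf18* in both, and from 0 to 1 in the difference with no background correction and with an offset of 16. Untreated it was 3 as reported, 5 with no background correction and 6 with an offset of 16 and with the scanner values. When an array was left out, calls ranged from 101 to 151 in wild-type, from 76 to 165 in *Trp53*-/- cells, from 92 to 163 in the difference and from 42 to 1505 untreated, the lowest without *Trp53*-/- replicate 2, the next, 86, without *Trp53*-/- replicate 1, and the highest without wild-type replicate 2. Members called ranged from 1 to 2 untreated, and other pathway genes from 0 to 5 untreated and from 0 to 1 in the difference and in *Trp53*-/- cells. The lone array of a genotype was then assumed to vary like the other pair. The replicate number shared by the genotypes is not known to mark shared material (correlation of deviations -0.18 for ratios and 0.081 for control levels). With it as a replicate block 101, 76 and 999 genes were called in wild-type, in *Trp53*-/- cells and untreated, and 2 members were called untreated, *Fgfr3* and *Spry4*. Crossed pairing, chosen after seeing the data, gave 101 and 76 in wild-type and *Trp53*-/- cells and 106 in the difference. A slide block was not run, because each slide held 1 array. For all counts and genes, 2 arrays per genotype and 2 residual degrees of freedom limit the precision.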
